A study of Bos taurus with 8 samples.

Results

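The genes described here are 8 bovine genes of major histocompatibility complex (MHC) class II antigen presentation: BOLA-DRA, BOLA-DRB3, BOLA-DQA2, BOLA-DQB, BOLA-DMA, BOLA-DMB, CD74 and CIITA. They were found, among the 16540 genes named on the array, by the gene name or sequence record that the scanner files give to each probe, and 23 of the 43653 gene probes matched. CD74 had 5 probes, BOLA-DRA, BOLA-DRB3, BOLA-DQB and BOLA-DMB had 3 each, and BOLA-DQA2, BOLA-DMA and CIITA had 2 each. The probes of BOLA-DMA carry the human-style name HLA-DMA in the files. Those of CIITA carry only a transcript record and were matched through its description there.

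The tissue was mammary gland, taken from a single part of the udder, of healthy lactating Holstein Friesian cows. Cows of high yield averaged 11097 kg of milk per lactation and cows of low yield 6956 kg. The cows formed 4 pairs of equal lactation, each made of a high-yield and a low-yield animal whose RNA shared 2 two-colour Agilent arrays with the dyes exchanged. Pairs 1 and 2 were in lactation II and lay on slide 1, and pairs 3 and 4 were in lactation IV and lay on slide 2. The labels give no treatment and no age for any cow.

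Class II molecules are cell-surface heterodimers of an alpha and a beta chain that present peptides from endocytosed proteins to CD4+ T cells. They are made mainly by B cells, dendritic cells and macrophages, and by epithelial cells under interferon gamma. CD74, the invariant chain, escorts new class II dimers and blocks their groove, the DM heterodimer then exchanges the remaining CD74 peptide for an antigenic one, and CIITA is the transcriptional co-activator on which expression of the whole set depends. Cattle present peptides through DR and DQ molecules, and the DQ genes differ in sequence and in number between haplotypes, so that a probe made from one DQ sequence may not pair equally well with the transcript of every animal.

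Each probe is a 60-base oligonucleotide, and the sequences of some of them bear on how the values can be read. The BOLA-DRA probe A_73_P438206 and the CD74 probe A_73_P106626 are given as examples of probes from genes measured by several probes. The CD74 probes gave like ratios, while the sign of the BOLA-DRA mean depended on the probe.

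A_73_P438206: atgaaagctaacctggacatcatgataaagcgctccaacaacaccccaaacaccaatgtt
A_73_P106626: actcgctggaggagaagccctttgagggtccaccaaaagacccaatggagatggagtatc

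Probes of neighbouring DQ genes partly cover the same stretch. The BOLA-DQA2 probe A_73_P039756 and the BOLA-DQA1 probe A_73_P245636 share 46 bases with 5 mismatches, and the BOLA-DQB probe A_73_P052096 and the BOLA-DQB1 probe A_73_P031816 share 41 bases with 4 mismatches. Capitals mark the mismatched bases.

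A_73_P039756: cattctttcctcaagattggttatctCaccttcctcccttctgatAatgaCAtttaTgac
A_73_P245636: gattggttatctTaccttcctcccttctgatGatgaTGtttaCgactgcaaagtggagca
A_73_P052096: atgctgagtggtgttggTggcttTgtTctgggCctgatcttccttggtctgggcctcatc
A_73_P031816: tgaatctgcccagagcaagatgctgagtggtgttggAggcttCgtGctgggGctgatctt

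A pair of BOLA-DQA1 probes assigned to a single sequence record, A_73_P052576 and A_73_P235072, themselves differ at 3 of the 33 bases they share, again in capitals.

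A_73_P052576: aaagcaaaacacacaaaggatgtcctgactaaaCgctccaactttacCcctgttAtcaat
A_73_P235072: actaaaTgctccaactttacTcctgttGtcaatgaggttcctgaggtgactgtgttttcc

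For a pair of probes whose signal was far lower in some cows than in others, the BOLA-DQA2 probe A_73_P106611 and the BOLA-DQB1 probe A_73_P109256, bases 16 to 45 are given.

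A_73_P106611: agttgcctaccatgagatcactggggtatt
A_73_P109256: aagcacattgaatgaaaccattacctgctt

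Between 22147 and 42629 gene spots per channel were well above background. Of the 23 class II probes, 19 passed the filter on dim probes, which asked for at least 6 of a yield group's 8 channels to be well above background. The arrays of a pair correlated at 0.753, 0.294, 0.668 and 0.260 in pairs 1 to 4, across all probes of the array that passed this filter. Ratios are high yield over low yield on the log2 scale, where 1 is a doubling, with the mean ± SD over 4 pairs. Levels of single cows, in log2 intensity, were rebuilt from the mean brightness and the ratio of the arrays of a pair, so the cows of a pair share a common part. RNA from whole tissue cannot show whether a gland held fewer cells of a type or less RNA per cell.

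No class II probe differed between high-yield and low-yield cows beyond the spread between pairs (limma, 0 of 19 at an adjusted p below 0.05, lowest adjusted p = 0.730). Across the array 0% of the 29867 kept probes passed, while 2.51% were higher and 3.93% lower at an unadjusted p below 0.05. Only 1 of the 19 favoured the high-yield animal in 4 of 4 pairs, against 8.21% of all kept probes, and 0 were lower in 4 of 4, against 10.3%. That 1 probe, A_73_P106611 of BOLA-DQA2, passed the filter only through the high-yield cows. The mean ratio was above 0 for 4 of the 19, against 48.5%, and the median over the 19 was -0.11, against -0.01 over all kept probes.

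The pairs went opposite ways. The high-yield cow had the lower signal for 18 of 19 probes in pair 1, where 53.3% of all kept probes were lower, and for 16 in pair 2 (47.3%). She had the higher signal for 13 of 19 in pair 3, against 47.1%, and for 18 in pair 4, against 48.7%. Pair 1 had the lowest and pair 4 the highest ratio for 15 of 19 probes, an arrangement found in 13.9% of all kept probes. The 19 include A_73_P106611 of BOLA-DQA2 and A_73_P112256 of CIITA, each of which passed the filter through a single yield group. They also include the CD74 probes A_73_116755 and A_73_P103191, which share 46 bases with 0 mismatches. The counts over the 19 therefore include probes that are not independent of each other. The median SD over the 4 pairs was 0.88 for the class II probes and 0.36 for all kept probes. The plot of all pair ratios shows this spread around means near 0.

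**Figure D1:**
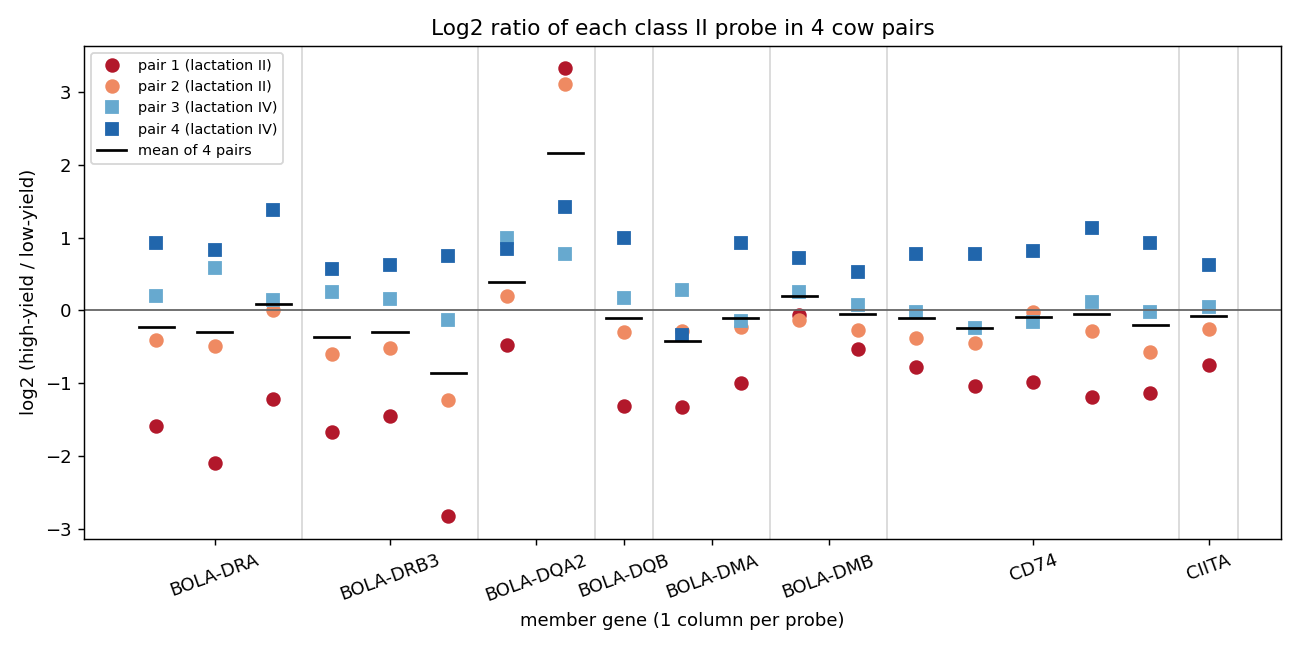
Log2 ratio, high over low yield (vertical axis), for each of the 19 class II probes above the filter, 1 column per probe and grouped by gene; circles are pairs 1 and 2 in lactation II, squares pairs 3 and 4 in lactation IV, and the bar is the mean of the 4 pairs. Pair 1 is lowest and pair 4 highest for 15 of the 19 probes, and the BOLA-DQA2 probe from record D50047 runs the other way, at 3.33 and 3.12 in pairs 1 and 2.

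BOLA-DRA encodes the alpha chain of DR, which varies little between animals. Its brightest probe, A_73_107479 at chr23:26439544-26439586 on the minus strand of build HGSC Btau_3.1, had ratios of -1.60, -0.41, 0.20 and 0.92 in pairs 1 to 4. The levels behind these ratios were 13.07, 12.29, 12.64 and 14.43 in the high-yield cows and 14.67, 12.70, 12.44 and 13.51 in the low-yield cows of pairs 1 to 4. The highest BOLA-DRA levels thus belonged to 1 cow of each yield, the low-yield cow of pair 1 and the high-yield cow of pair 4, and the yield groups overlapped. The mean ratio was -0.22 ± 1.07 (SD, n = 4 pairs; limma adjusted p = 0.898). Pair 1 alone put BOLA-DRA 3.02-fold higher in the low-yield cow, and pair 4 put it 1.89-fold higher in the high-yield cow. The other BOLA-DRA probes, A_73_P038356 and A_73_P438206, kept that order, with -2.09 and -1.21 in pair 1 and 0.83 and 1.39 in pair 4. Their means were -0.29 and 0.08, so the sign of the BOLA-DRA mean depended on the probe. On A_73_P438206 the arrays also had opposite signs in pair 2, at 0.81 and -0.79, and in pair 3, at 1.07 and -0.77.

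BOLA-DRB3 encodes the beta chain of DR and is the most polymorphic expressed class II gene of cattle. Its 3 probes separated into 2 that behaved alike and 1 that spread more widely. A_73_P045206 had ratios of -1.68, -0.60, 0.25 and 0.57 in pairs 1 to 4. A_73_P062206, at chr23:26338728-26338787 on the plus strand, stood at -1.45, -0.52, 0.16 and 0.63. The brightest probe, A_73_P103296, which the files do not place on the genome, gave -2.83, -1.23, -0.14 and 0.76. On that probe the low-yield cow of pair 1 had 7.11 times the signal of her high-yield partner, against 3.20 and 2.74 times on the others. Mean ratios were -0.37 ± 1.00, -0.30 ± 0.90 and -0.86 ± 1.54 (SD, n = 4 pairs), with limma adjusted p-values of 0.816, 0.834 and 0.745.

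BOLA-DQA2, an alpha chain of DQ, was the gene whose probes disagreed most. A_73_P039756, at chr23:26190182-26190241 on the minus strand, was well above background in every channel and gave -0.48, 0.20, 1.00 and 0.85, a mean of 0.39 ± 0.68 (SD, n = 4 pairs; limma adjusted p = 0.745). A_73_P106611, built from record D50047 and not placed on the genome, gave 3.33, 3.12, 0.78 and 1.43, all 4 pairs in favour of the high-yield cow. Its mean was 2.16 ± 1.26 (SD, n = 4 pairs; limma adjusted p = 0.730). The probe passed the filter through the high-yield cows alone, with 8 of 8 of their channels well above background and 5 of 8 of those of low-yield cows, so that this mean is not a measured fold and its test carries no weight. With the scanner software's processed signals the mean was 3.86, with the saddle-point background 1.56, and with both BOLA-DQA2 probes averaged 1.28.

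The size of that ratio came from low-yield cows whose A_73_P106611 signal was at background. In pair 1 the net spot intensity, that is spot minus local background, was 821 and 130 for the high-yield cow on the pair's arrays and 30.1 and 14.3 for the low-yield cow. In pair 2 it was 992 and 264 against 9.44 and 54.6. The low-yield cow was not well above background on either array of pair 1, nor on array 1 of pair 2. In pairs 3 and 4 both cows were well above background, with rebuilt levels of 9.70 and 12.27 in the high-yield cows and 8.93 and 10.85 in the low-yield cows. The low-yield cow of pair 1, lowest of all 8 on this probe at 5.19, was the highest of the low-yield cows for BOLA-DRA.

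The beta-chain probe A_73_P109256, made from a DQB clone (record Y18203) and placed with BOLA-DQB1 by the files' name BLA-DQB, divided the cows in the same place. Its ratios were 4.63, 4.55, -0.27 and 1.44. The low-yield cows of pairs 1 and 2 stood at 5.80 and 6.24, and the other 6 cows between 10.30 and 13.06. The low-yield cows of those pairs were still well above background on 3 of their 4 arrays. Their net intensities were low, at 107 and 118 in pair 1 and 6.08 and 67.9 in pair 2. In their channels of array 1 of pair 1 and array 2 of pair 2, 39546 and 42312 gene spots passed that mark, so it says little there. The other BOLA-DQB1 probes, A_73_P031816 and A_73_P362616, gave -2.32 and -2.26 in pair 1, the opposite direction. Probes for one DQ gene therefore put the same pair of cows on opposite sides.

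BOLA-DQB, a beta chain of DQ, had 1 probe above the filter. A_73_P052096, at chr23:26223883-26223942 on the plus strand, gave -1.31, -0.30, 0.18 and 1.00, with a mean of -0.11 ± 0.96 (SD, n = 4 pairs; limma adjusted p = 0.949). This was the BOLA-DRA order, with levels of 9.40 to 11.69 in the high-yield cows and of 9.50 to 11.31 in the low-yield cows, the highest again in pairs 4 and 1. The remaining BOLA-DQB probes, A_73_105688 at chr23:26226768-26226827 and A_73_P336561 at chr23:26226966-26227025, were well above background in both cows of pair 4 on both arrays, and in 4 of the 12 channels of the other pairs. On A_73_105688 the pair 4 cows stood at 10.98 (high yield) and 10.02 (low yield), and the others between 5.83 and 6.57. On A_73_P336561 the corresponding values were 10.71, 9.71 and a range from 5.82 to 6.14.

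Both probes of BOLA-DQA5, an alpha chain of DQ outside the 8 genes, were bright in the same 2 cows. They reached 9.92 and 10.81 in the high-yield cow of pair 4 and 9.08 and 9.83 in her low-yield partner, and stayed between 5.80 and 6.17 elsewhere. Since both cows of pair 4 carried the signal, none of these 4 probes separated the yield groups.

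**Figure D2:**
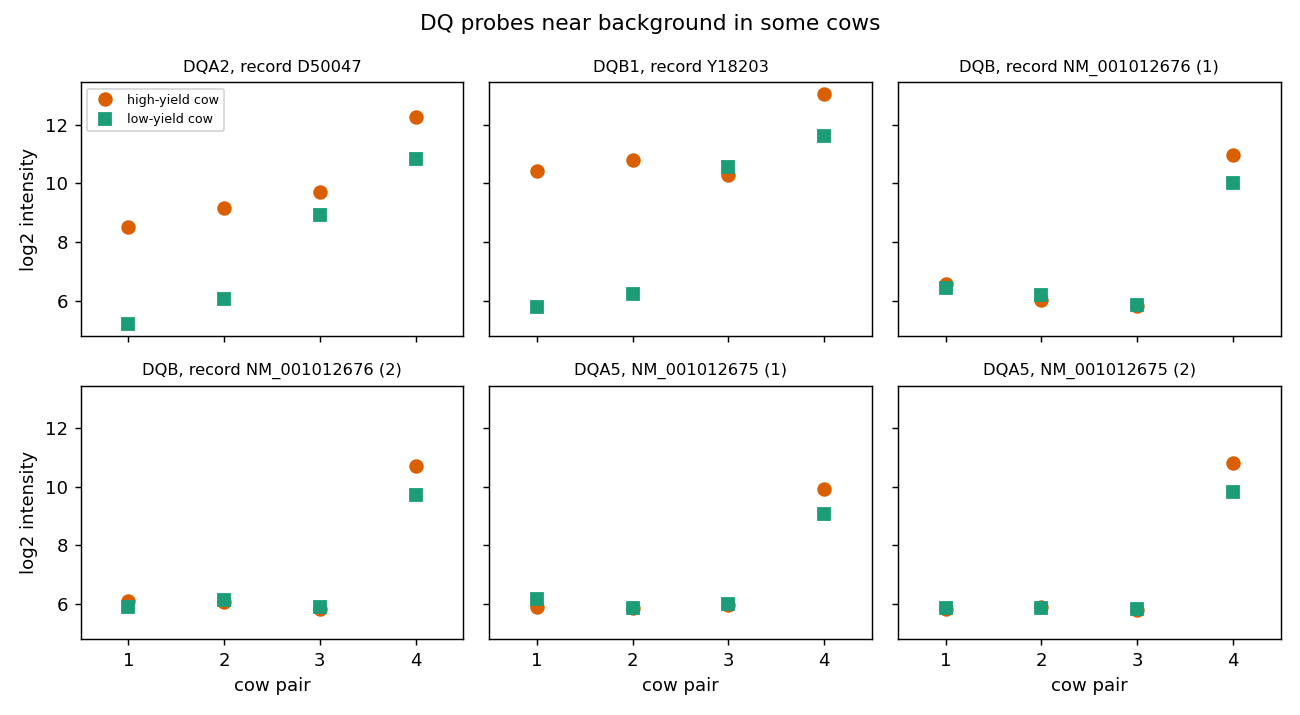
Rebuilt log2 intensity (vertical axis) of 6 DQ probes in the 8 cows, by cow pair (horizontal axis), with circles for high-yield and squares for low-yield cows. The low-yield cows of pairs 1 and 2 are the lowest in the first and second panels, and only the cows of pair 4 exceed 6.57 in the other 4.

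BOLA-DMA and BOLA-DMB encode the chains of DM, the peptide exchanger. The brightest BOLA-DMA probe, A_73_104988 at chr23:7471637-7471696 on the minus strand, gave -1.33, -0.28, 0.28 and -0.33, a mean of -0.42 ± 0.67 (SD, n = 4 pairs; limma adjusted p = 0.741). The other, A_73_P372951 at chr23:7473687-7473746, lay close to it in pairs 1 and 2, at -0.99 and -0.23. It opposed it in pair 4, at 0.93, where both arrays gave a positive value, 0.61 and 1.24. On A_73_104988 both arrays of pair 4 were negative, -0.25 and -0.41. In pair 3 the probes also differed in sign, with -0.14 on A_73_P372951. The direction of BOLA-DMA in pairs 3 and 4 therefore depended on the probe.

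BOLA-DMB had the smallest SD of pair ratios among the brightest probes of the 8 genes. On A_73_P039926, mapped between chr23:7454520 and chr23:7454977 on the minus strand, a span longer than the probe, the ratios were -0.06, -0.14, 0.25 and 0.73. The mean was 0.19 ± 0.39 (SD, n = 4 pairs; limma adjusted p = 0.791). A_73_P419141 gave -0.53, -0.26, 0.07 and 0.53. A_73_P185692 was well above background in 5 of 16 channels, with levels from 6.01 to 6.30 in the 8 cows, and was not tested.

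CD74 lies on another chromosome than the class II genes, and its 5 probes gave like ratios. They are not 5 separate measurements, since A_73_116755 and A_73_P103191 share 46 bases with 0 mismatches. The brightest, A_73_116755 at chr7:61216621-61216680 on the minus strand, gave -0.78, -0.38, -0.02 and 0.78, with a mean of -0.10 ± 0.67 (SD, n = 4 pairs; limma adjusted p = 0.933). Levels were 9.73, 8.55, 8.29 and 11.30 in the high-yield cows and 10.50, 8.94, 8.30 and 10.51 in the low-yield cows. The lowest CD74 levels were those of both cows of pair 3, and the highest those of both cows of pair 4 and of the low-yield cow of pair 1. Over all 5 probes the pair 1 ratio lay between -1.18 and -0.78 and the pair 2 ratio between -0.57 and -0.02. In pair 3 the range was -0.24 to 0.11, and pair 4 gave 0.77 to 1.14.

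The pair 4 value of CD74 is the mean of arrays that disagreed. Array 1, with the high-yield cow in Cy5, gave between 1.88 and 2.55 over the 5 probes, and array 2, with the dyes exchanged, gave between -0.68 and -0.27. BOLA-DRA split likewise on A_73_P438206, at 2.86 and -0.08, and on A_73_P038356, at 1.81 and -0.14, but not on A_73_107479, at 0.97 and 0.88. In all, 8 of the 19 class II probes had opposite signs on the arrays of pair 4, against 48.1% of all kept probes. The number was 0 in pair 1 (31.4%), 4 in pair 2 (43.9%) and 6 in pair 3 (29.5%). With array 2 of pair 4 left out, the mean CD74 ratio became 0.17, and with array 1 left out -0.37. The part of dye or hybridisation in these splits was not tested.

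**Figure D3:**
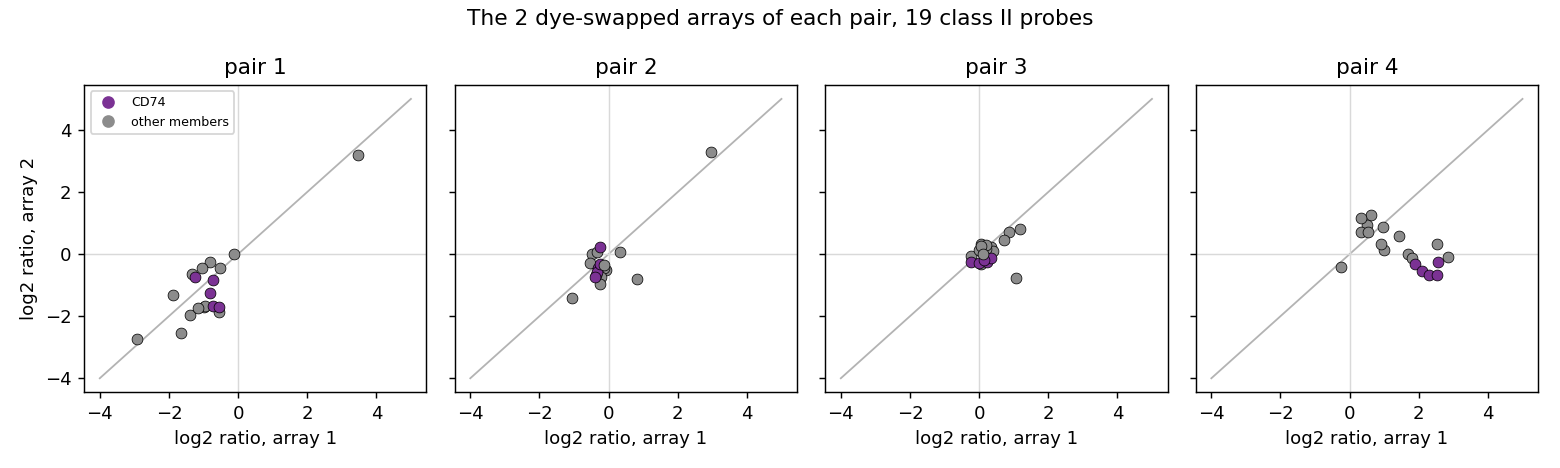
High over low yield log2 ratio on array 1 (horizontal axis) and array 2 (vertical axis) of each pair for the 19 class II probes, with CD74 in purple and the diagonal marking equal values. In pair 4 all CD74 probes are above 1.8 on array 1 and below 0 on array 2, while in pair 1 no probe changes sign.

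CIITA was close to the limit of detection. A_73_P112256, at chr25:10644676-10644735 on the plus strand, was well above background in 4 of the 8 channels of high-yield cows and 6 of the 8 of low-yield cows. The probe thus passed the filter only through the low-yield cows, and its test and its place in the counts of class II probes carry no weight. It gave -0.75, -0.25, 0.05 and 0.63, a mean of -0.08 ± 0.58 (SD, n = 4 pairs; limma adjusted p = 0.940). The order of the pairs was that of BOLA-DRA. The other CIITA probe, A_73_P281321, did not pass the filter, and its ratios lay between -0.18 and 0.10.

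**Figure D4:**
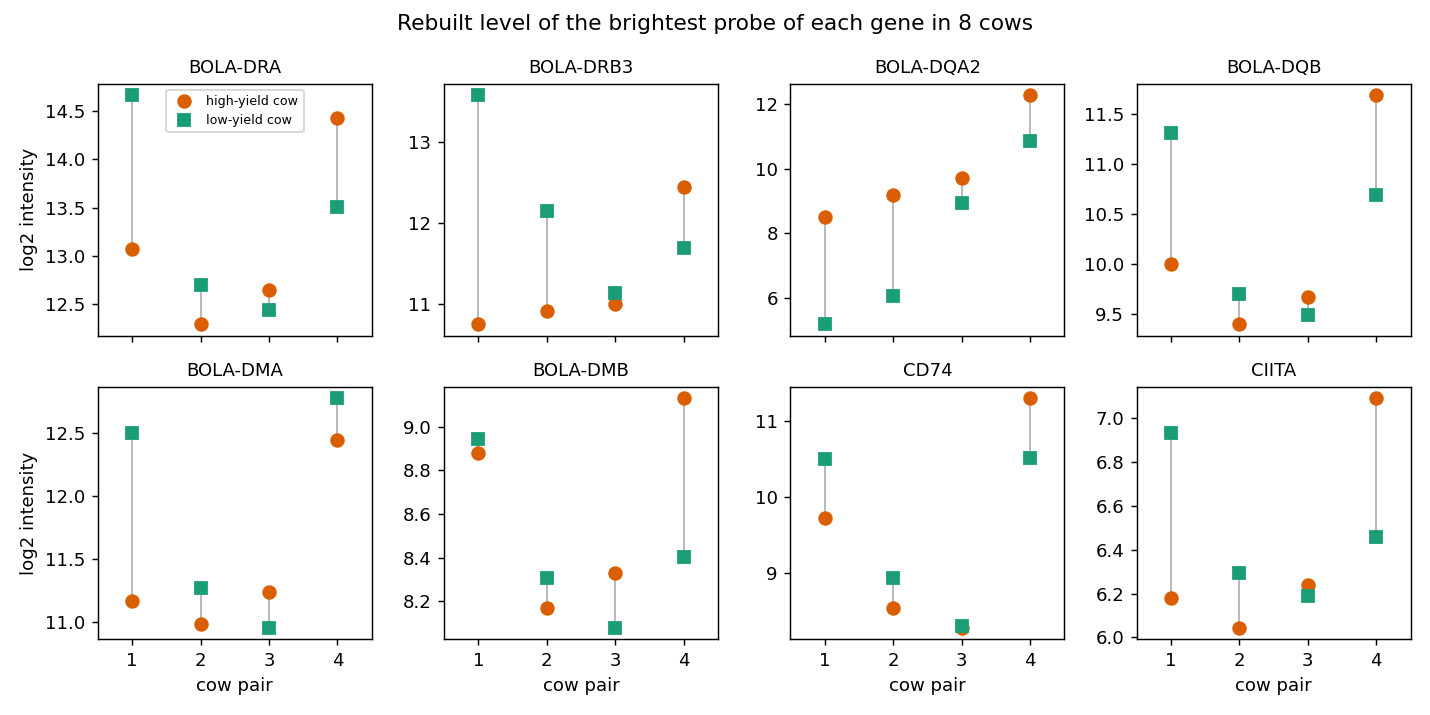
Rebuilt log2 intensity (vertical axes, each with its own range) of the brightest probe of each of the 8 genes in the 8 cows, by cow pair (horizontal axis); circles are high-yield and squares low-yield cows, joined within a pair. For BOLA-DRA, BOLA-DQB, CD74 and CIITA the high-yield cow of pair 4 or the low-yield cow of pair 1 is highest; BOLA-DQA2 is lowest in the low-yield member of pairs 1 and 2.

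The comparison of lactations asked whether the effect of yield was the same in lactation IV as in lactation II. For 16 of the 19 class II probes both pairs of lactation IV had a higher ratio than both pairs of lactation II, against 19.9% of all kept probes, and for 1, the BOLA-DQA2 probe A_73_P106611, both were lower, against 21% of all. None passed the test over all kept probes, where 0% did (limma, adjusted p between 0.641 and 0.693). At an unadjusted p below 0.05, 8 of the 19 were higher, against 3.29%, and 1 lower, again A_73_P106611, against 4.36%. Leaving out a pair leaves 1 pair in a lactation, so only effect sizes are given for such fits. Within lactation II the mean ratio of BOLA-DRA on A_73_107479 was -1.003, and within lactation IV 0.56, a difference of 1.56 (SE 0.53). For BOLA-DRB3 on A_73_P103296 the difference was 2.34 (SE 0.66), for BOLA-DQB 1.39 (SE 0.50) and for CD74 on A_73_116755 0.96 (SE 0.39). CD74 fell to 0.42 without array 1 of pair 4 and to 0.56 without pair 4, while BOLA-DQB fell to 0.89 without pair 1. BOLA-DRA fell to 0.97 and BOLA-DRB3 to 1.54 without pair 1. For A_73_P106611, whose lactation II ratios rest on low-yield channels mostly at background, the value was -2.12 as computed here, -5.32 with the scanner software's signals and -0.53 with both BOLA-DQA2 probes averaged. The other BOLA-DQA2 probe, A_73_P039756, well above background in every channel, went the opposite way, at 1.06. The median difference over the 19 probes was 1.06, against 0.03 over all kept probes. Lactation and slide cannot be told apart, since each slide held 1 lactation.

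The highest class II levels were often those of 2 cows. The high-yield cow of pair 4 and the low-yield cow of pair 1 each had the highest level of their yield group for 14 of the 19 class II probes, against 19.2% of all kept probes. The low-yield cow of pair 1 stood apart in milk protein genes, with a LALBA level of 9.76 against 16.15 to 19.63 in the other 7 cows. The mean level of the 12 luminal secretory genes, of which 12 of 12 passed the filter, was 12.90 in her, 15.16 to 15.41 in the remaining low-yield animals and 14.83 to 16.16 across high-yield animals. The list was not low in her throughout: the epithelial genes KRT8 (15.34), KRT18 (13.79), EPCAM (13.64) and CDH1 (13.62) were at their highest of all 8 cows, while the milk protein genes and ELF5 were at their lowest. Without pair 1, 17 of the 19 class II probes had a mean ratio above 0, against 50.7% of all kept probes, and the median over the 8 genes moved from -0.10 to 0.19. BOLA-DRA then stood at 0.24 ± 0.67, BOLA-DQB at 0.29 ± 0.66 and CD74 at 0.13 ± 0.60 (SD, n = 3 pairs), each with the sign turned. BOLA-DRB3 on A_73_P103296 kept its sign, at -0.20 ± 0.99 (SD, n = 3 pairs).

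Of the 5 lymph node genes above the filter, 3 were at their highest in the high-yield cow of pair 4. The share of all genes highest in her was not computed, so whether 3 of 5 is unusual cannot be said. CCL19, a chemokine that draws T cells and dendritic cells, stood at 9.90 in her against 6.69 to 8.39 in the others, CXCL13, which draws B cells, at 8.08 against 6.10 to 6.74, and CCR7, the receptor of CCL19, at 8.12 against 6.52 to 7.34. CCL21 and MADCAM1 did not follow, with CCL21 at 8.12 in her against 10.06 in pair 1's low-yield animal, and MADCAM1 at 7.15 in her and 7.45 in the high-yield cow of pair 3. Of 7 lymph node genes 5 passed the filter, LTB and FDCSP having no probe under those names here, and their mean level was 8.27 in her, 6.95 to 7.11 in the other high-yield cows and 6.79 to 7.84 in the low-yield cows. For macrophages and dendritic cells 13 of 16 genes passed, with mean levels of 8.69 to 9.20 in high-yield and 8.54 to 9.11 in low-yield cows. For B and plasma cells 7 of 10 passed, with 8.46 to 9.31 and 8.56 to 9.04, and the B cell markers MS4A1 and CR2 were too dim to pass. For T and natural killer cells 13 of 16 passed, with 8.29 to 8.90 and 8.48 to 9.02. The part of these cell types in the class II ratios was not tested.

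Of 10 other class II genes, 8 were on the array under names matched here and 6 passed the filter. None passed the test for yield over all 12606 genes, where 0% did. Their median ratio was 0.08, against 0.03 over all genes. The brightest probes of BOLA-DQA1, BOLA-DQB1 and BOLA-DSB were below 0 in pair 1 like BOLA-DRA, at -1.18, -2.32 and -1.80. The BOLA-DQA1 probes disagreed among themselves. A_73_P052576 gave 0.46, 0.60, 0.31 and 1.02 and A_73_P235072 gave 0.46, 0.53, 0.24 and 1.25, both in favour of the high-yield cow in 4 of 4 pairs, while A_73_111307 was below 0 in all 4, at -0.84, -0.34, -0.11 and -0.49. BOLA-DOA and BOLA-DYB were not below 0 in pair 1. BOLA-DOA, the alpha chain of DO, which restrains DM, gave 1.01, 0.21, 0.50 and 0.08, a mean of 0.45 ± 0.41 (SD, n = 4 pairs). BOLA-DYB, a beta chain of the ruminant DY molecule, gave 0.03, 0.15, 0.34 and 0.47, a mean of 0.25 ± 0.20 (SD, n = 4 pairs). Those 2 of 6 favoured the high-yield animal in 4 of 4 pairs, against 9.65% of all genes (limma adjusted p = 0.792 for both). BOLA-DYB passed the filter only through the high-yield cows, with 6 of 8 channels well above background against 4 of 8 in low-yield cows, so its place in that count carries no weight. For BOLA-DOA, as for A_73_P106611, pair 1's low-yield cow was lowest of all 8, at 7.45 against 8.28 to 9.25.

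Of 18 regulators of class II transcription and of interferon gamma signalling, 17 passed the filter, and IFNG itself was too dim. None passed the test for yield (limma), and the median ratio was -0.25. IFNGR2, a chain of the interferon gamma receptor, was higher in the high-yield cow of all 4 pairs, at 1.26, 0.62, 1.64 and 0.80, a mean of 1.08 ± 0.46 (SD, n = 4 pairs). JAK2, the kinase bound to that receptor, was lower in all 4, at -0.79, -0.38, -1.003 and -0.40, a mean of -0.64 ± 0.31. NFYB and NFYA, subunits of the NF-Y factor that binds class II promoters, were also lower in all 4, with means of -0.38 ± 0.20 and -0.33 ± 0.27. Those 3 of 17 compare with 7.62% of all genes lower in 4 of 4, and 1 of 17 higher compares with 9.65% (limma adjusted p = 0.792 for each of the 4 genes).

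Genes of antigen processing and of T cell help showed no direction common to the pairs. Of 12 processing genes, among them the cathepsins that cut CD74 and antigens, 11 passed the filter. Their median ratio was 0.05, and 0 of the 11 had the same sign in 4 of 4 pairs. Of 8 co-stimulatory genes and CD4-side partners, 4 passed, CD86, CD40, CD4 and CD83, with a median of 0.03 and again 0 with one sign in 4 of 4. The median lactation difference was 1.098 over those 4 genes and 0.26 over the processing genes, against 0.03 over all genes.

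The genes whose levels over the 8 cows lay closest to those of CD74 were found from the root mean square difference of levels centred on each gene's mean, over 12605 other genes. They were FOLR2 at 0.295, HMOX1 at 0.305, LIPA at 0.324, BRB at 0.333 and CKB at 0.349, where the median over all genes was 1.13 and the SD of CD74 itself was 1.16. FOLR2 is a folate receptor of macrophages, HMOX1 degrades haem, LIPA is the lysosomal acid lipase, BRB is a ribonuclease and CKB a creatine kinase. In FOLR2 the ratios were -0.96, -0.22, 0.61 and 0.73. BOLA-DQB ranked 9th at 0.403, BOLA-DRA 27th at 0.472 and BOLA-DMA 88th at 0.564. BOLA-DMB and CIITA followed at ranks 846 and 868, BOLA-DRB3 at 1391 and BOLA-DQA2, through A_73_P106611, at 12466. These are distances over 8 cows that share arrays in pairs, given as a description.

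**Figure D5:**
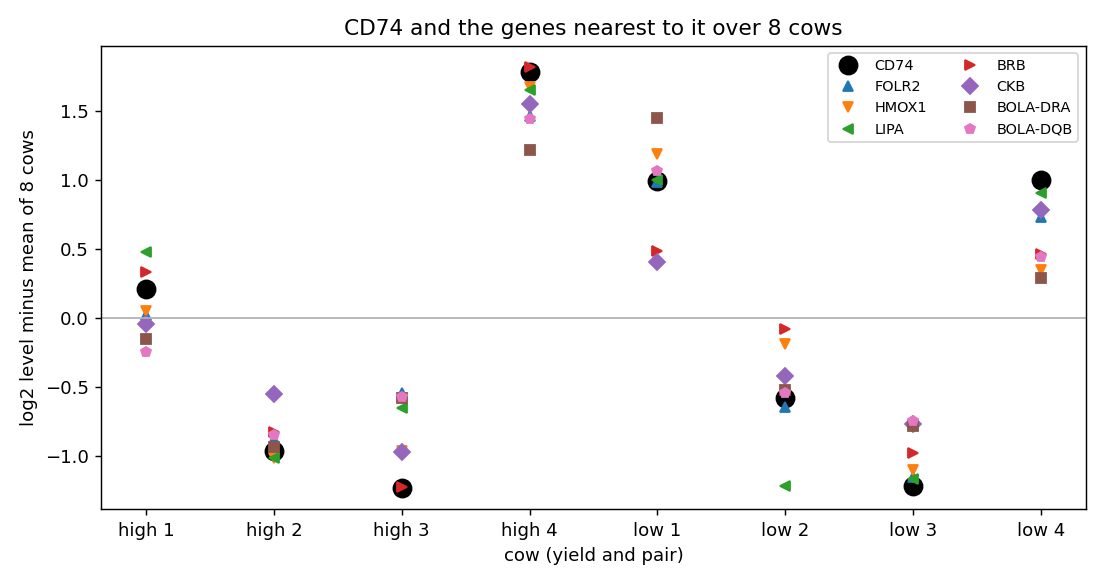
Log2 level minus the mean of the 8 cows (vertical axis) for CD74 (large black points), the 5 genes nearest to it, and BOLA-DRA and BOLA-DQB, in each cow by yield and pair (horizontal axis). All are highest or second highest in the high-yield cow of pair 4 and below their mean in both cows of pairs 2 and 3.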

How the data were processed

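Per the labels' protocols, 1000 ng of total RNA entered each labelling reaction (Cy3 or Cy5). The deposited scanner files hold, per the file headers, intensity values per spot from Feature Extraction 10.10.1.1 and a log10 ratio of Cy5 over Cy3. The authors' deposited table holds log2 ratios whose making is not given in the sources used here. Set against the scanner values, they are high over low yield and centred near 0. For array 1 of pairs 2 and 3 they matched the scanner ratios poorly, with correlations of 0.36 and 0.38 and slopes of 0.10 and 0.09. Correlations were 0.86 to 0.95 on the other arrays. Here mean spot and median background intensity were corrected with normexp (noise from 153 negative controls, offset 50) and within-array loess in limma 3.58.1 (R 4.3.3). Outlier spots (6 to 118 per array) were dropped. Dye-swapped arrays were averaged to 1 value per pair, and 4 pairs tested two-sided (lmFit, eBayes), Benjamini-Hochberg adjusted over 29867 probes or 12606 genes (brightest probe each). P-values measure the spread between 4 pairs. Data were simulated on 29867 probes with each probe's own SD. Changes of 1 on the log2 scale were recovered for 10 of 100 probes for yield, and changes of 2 for 53 of 100. For the lactation difference, 0 of 100 were recovered at either size. The changed probes were drawn from all kept probes, whose median SD was 0.36, against 0.88 for the class II probes. Names came from the files and an ARS-UCD2.0 gene table; positions are on HGSC Btau_3.1, with no exon annotation used here. Named were all probes of the 8 genes; of the lists of other class II genes, regulators, processing and co-stimulation, those past the test or, where none, the 4 largest of one sign in 4 of 4 pairs; and the 5 genes nearest to CD74. Other class II probes, list genes and cell type markers named beside them were chosen after their values were seen. The genes and lists were chosen with earlier results of these data known. Probe overlaps were sought without gaps over at least 30 bases with at most 25% mismatches. Python 3.11.15 and matplotlib 3.10.9 drew the plots.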

Additional observations from a re-analysis of the deposited data

Results flagged for a closer look

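Sets of 4 values were tested, each a class II probe's pair ratios or its levels in 1 yield group. In 4 of 57 sets the high-yield cow of pair 4 lay farther from the other 3 high-yield cows than Dixon's critical value allows. Chance alone marks about 1 independent set in 20, so the number is near that of chance. The sets are not independent, since probes of a gene measure the same cows. The share over all kept probes was not computed, and the number is not read as a trait of this cow. Her level was 13.14 on the BOLA-DRA probe A_73_P038356, against 10.77 to 11.10, and 10.05 on A_73_P438206, against 8.30 to 8.497. It was 12.44 on the BOLA-DRB3 probe A_73_P103296, against 10.75 to 10.999, and 12.45 on the BOLA-DMA probe A_73_104988, against 10.99 to 11.23. No ratio and no low-yield cow was marked in this way.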

How the results depend on the processing

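No alternative gave a probe or gene called for yield (limma, 0 in each of 19), with 919 to 5101 probes at an unadjusted p below 0.05. For the lactation difference, median centring in place of loess called 7 genes. Leaving out one pair at a time gave 0 to 179 probes and 0 to 223 genes, the higher numbers without pair 2, and none was the brightest probe of a class II gene. The lactation differences of the 8 genes kept the direction of their brightest probe in every alternative run, but not their size. CD74 ranged from 0.36 with high yield in Cy3 to 1.57 with it in Cy5. For BOLA-DQA2 the brightest probe is A_73_P106611, and A_73_P039756 had the opposite direction, at 1.06. Mean yield ratios near 0 turned: BOLA-DMB was -0.11 with median centring; BOLA-DQB and CD74 were 0.13 and 0.27 on the arrays with high yield in Cy5; over the fits leaving out one pair, the range was -0.60 to 0.24 for BOLA-DRA, -0.48 to 0.29 for BOLA-DQB, -0.39 to 0.13 for CD74 and -0.32 to 0.14 for CIITA, each highest without pair 1 and lowest without pair 4. Settings chosen after seeing the data turned CD74 to 0.17 without array 2 of pair 4 (-0.37 without array 1), and, unpaired and without the low-yield cow of pair 1, BOLA-DRA to 0.23, BOLA-DQB to 0.23, CD74 to 0.21 and CIITA to 0.074. The cause was not tested. BOLA-DMA, BOLA-DRB3 and BOLA-DQA2 kept their sign, the last between 1.28 with its probes averaged and 3.86 with the scanner software's signals. Without the replicate block the median over the 8 genes was -0.10 by construction. The rebuilt levels make the difference of the yield groups equal to the mean of the pair ratios, so this run cannot test the median. The number of pairs, and signals near background for CIITA and several DQ probes, limit all values.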
